A study of Homo sapiens with 62 samples.

Results

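The cells described here are 4 clones of MCF10A, an immortalised, non-tumorigenic human breast epithelial line, from which an extra copy of the long arm of chromosome 1 (1q) had been deleted. They were chosen by their labels: 8 libraries of genotype 1q-loss, 2 from each of clones 1 to 4, were compared with 2 libraries of unedited MCF10A of genotype WT, which keep the extra arm. These 10 libraries are part of the 62 in the series, which used RNA sequencing to ask what changes when cells lose a chromosome arm they had gained. None of the 10 expresses hRASV12 (called hRas here), an activated form of HRAS. Per the labels, clones 1 to 3 were made by ReDACT-TR and clone 4 by ReDACT-CO, both versions of a genome-engineering method aimed at 1q. Only clone 4 was made by ReDACT-CO, so the clone and the version cannot be told apart. Cells were grown for 24 h after plating before RNA was extracted. The libraries of a clone are called biological replicates in the labels, but they are not independent clones, and p-values over libraries measure only the spread between these libraries.

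A gene present in more copies is usually transcribed more, so expression along an arm falls when an extra copy is removed, although some genes are held closer to their former level. Gain of 1q is frequent in breast cancer, and the arm carries MDM4, an inhibitor of the p53 tumour suppressor, MCL1, a pro-survival member of the BCL2 family, and UCK2, a kinase of the nucleoside salvage pathway. MCF10A cells resemble basal mammary epithelium: they make the basal keratins KRT5 and KRT14, adhere through integrins and laminins, and need epidermal growth factor. Each clone grew from a single cell, so features of that cell and of its later growth appear in the clone beside the effect of the deletion.

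The 10 libraries held 18103348 to 29312644 counts over 58735 genes. Markers of mammary epithelial cells summed to 7529 to 8596 CPM (counts scaled to library size by edgeR) in the WT and to 6236 to 13023 CPM in the loss libraries, with KRT5 the highest. Of 7 fibroblast markers COL1A2, COL3A1 and LUM were at 0 in every library and the rest summed to 8.133 to 25.11 CPM. Leukocyte and endothelial markers summed to at most 10.25 and 1.258 CPM. No pair of libraries agreed within counting noise: chi-square per degree of freedom was at least 9.661 within a clone.

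Expression of 1q fell in every loss library. The arm shift, the median log2 difference from WT over 710 tested genes of 1q minus the same median over the other autosomal arms, lay between -0.57 and -0.47 in the 8 loss libraries and at 0.0076 and -0.0076 in the WT libraries, so the groups did not overlap. The mean difference was -0.51 (SD 0.031 over the 8 loss libraries; exact permutation p = 0.0444, two-sided, the smallest that 8 against 2 libraries can give). This is 70.04% of WT, where 2 copies against 3 would give 66.7%. The clones stood at 69.8%, 68.3%, 71.1% and 71.0% of WT in the order of clones 1 to 4.

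In the test over all genes (edgeR's quasi-likelihood test, Benjamini-Hochberg adjusted p under 0.05), 319 of 15666 genes were called, 47 higher and 272 lower in the loss libraries, or 2.04% of the genes tested. Genes of 1q made up 246 of the 272 lower calls, and no gene of 1q was called higher. The 246 are 34.6% of the 710 tested genes of 1q, against 0.488% of the 14956 genes elsewhere. Calls rested on both WT libraries: 16 genes, 14 of them on 1q, were called without WT replicate 1, and 64, of which 57 were on 1q, without WT replicate 2. Of the 36 called genes picked by the naming rule, 1 was still called without WT replicate 1 and 5 without WT replicate 2.

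The fall was broad rather than carried by a few genes. The middle 50% of 1q genes lay between -0.67 and -0.25 on the log2 scale, with a median of -0.50, and 612 of 710 (86.2%) were below 0. Among the 351 genes of 1q with a mean of at least 20 CPM, 341 (97.15%) were below 0 and the median was -0.54. In 508 of the 710 genes every clone mean was below WT, and in 384 (54.1%) all 8 loss libraries lay on 1 side of both WT libraries, against 11.8% of all genes tested.

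Genes of 1q named for their known roles fell by 0.43 to 0.71 on the log2 scale, except NCSTN, which missed the threshold. MDM4 (chr1:204516379-204558120, GRCh38) stood at 28.8 and 29.3 CPM in the WT libraries and at 13.6 to 20.7 CPM in the loss libraries, with no overlap between the groups. Its log2 fold change was -0.71 ± 0.14 (SE, as after every fold change here; edgeR adjusted p = 0.0123). UCK2 had 197 and 180 CPM in WT and 102 to 134 CPM in the loss libraries (log2 fold change -0.70 ± 0.10, edgeR adjusted p = 0.00251). UCK2 overlaps TMCO1 on the opposite strand, which also fell (-0.61), and whether the counting used the strand is not given in the sources used here. MCL1 fell by 0.46 from 745 and 705 CPM, and ATF6, a sensor of unfolded protein in the endoplasmic reticulum, fell by 0.43 from 104 and 99.6 CPM. ATF6 lost its call in 13 of 21 alternatives. Of 3 subunits of gamma-secretase, the protease that releases the active part of NOTCH receptors, APH1A fell by 0.46 and PSEN2 by 0.59. The third, NCSTN, had 114 and 120 CPM in WT and 79.5 to 100 CPM in the loss libraries, and missed the threshold (log2 fold change -0.37; adjusted p = 0.0713 by edgeR).

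Several falls on the arm lay far below the arm's median. ILDR2 fell by 1.53, S100A9, a calcium-binding protein of inflammation and keratinocyte differentiation, by 1.34, FLVCR1, a haem and choline transporter, by 1.05, RGS16, a regulator of G-protein signalling, by 0.94 and TRAF5, an adaptor of TNF receptors, by 0.94. S100A9 had 10.9 and 6.1 CPM in WT and at most 4.84 CPM in a loss library. It lost its call in 11 of 21 alternatives and RGS16 in 5.

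Some genes of 1q stayed near WT. Among those above 20 CPM, genes close to 0 were ATP2B4, a calcium pump, at 0.00, RNF115, a ubiquitin ligase, at 0.01, S100A6, a calcium-binding protein, at -0.01, and RBM8A, a core protein of the exon junction complex, at -0.02. ATP2B4 and S100A6 lie among genes that fell, and both differed among the clones (adjusted p = 0.0139 and 0.0256 by edgeR). ATP2B4 was highest in clone 2 (93.4 and 110 CPM against 70.8 and 87.5 CPM in WT), and S100A6 in clone 4 (856 and 763 CPM against 664 and 600 CPM).

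RNF115 and RBM8A instead lie close together near the centromere, where the clones were unlike each other. Over the 13 genes above 20 CPM in the 5 Mb before 150 Mb, the median difference from WT was 0.02, 0.07 and 0.08 in clones 1, 3 and 4 and -0.49 in clone 2. Both libraries of clone 2 were at -0.49, and all 13 genes were below both WT libraries there, against 3, 1 and 3 genes in clones 1, 3 and 4. In the next 5 Mb the 52 genes stood at -0.54, -0.57, -0.49 and -0.58 in clones 1 to 4. These borders were set after the values had been seen. RBM8A had 153 and 133 CPM in WT and 158.2, 155.4, 169.1, 145.4, 146.8 and 157.2 CPM in clones 1, 3 and 4, but 97.9 and 96.5 CPM in clone 2.

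In the fit of the 8 loss libraries 9 of the 13 genes were called lower in clone 2 than in the other clones (3 without its replicate 1, 4 without its replicate 2). The stretch and its borders were chosen from these same libraries, so this count is a description and no test. The 9 included RNF115, POLR3C, a subunit of RNA polymerase III, PIAS3, an inhibitor of STAT3, RBM8A, SF3B4, a splicing factor, and OTUD7B, a deubiquitinase. RNF115 (chr1:145738868-145824077) stood at -0.58 in clone 2 and at 0.15, 0.11 and 0.24 in clones 1, 3 and 4. OTUD7B (chr1:149937812-150010676), at the far end, stood at -0.50 in clone 2 and at 0.08, 0.10 and 0.67 in the others. Genes just beyond it were below WT in every clone: VPS45 (chr1:150067279-150145329) at -1.05, -0.29, -0.24 and -1.62, PLEKHO1 at -0.51, -0.92, -0.40 and -0.88, and ANP32E, a histone chaperone, at -0.54, -0.84, -0.63 and -1.11 in clones 1 to 4. Genes of the NBPF family, also in this stretch, have near-identical copies and were not read individually.

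**Figure D1:**
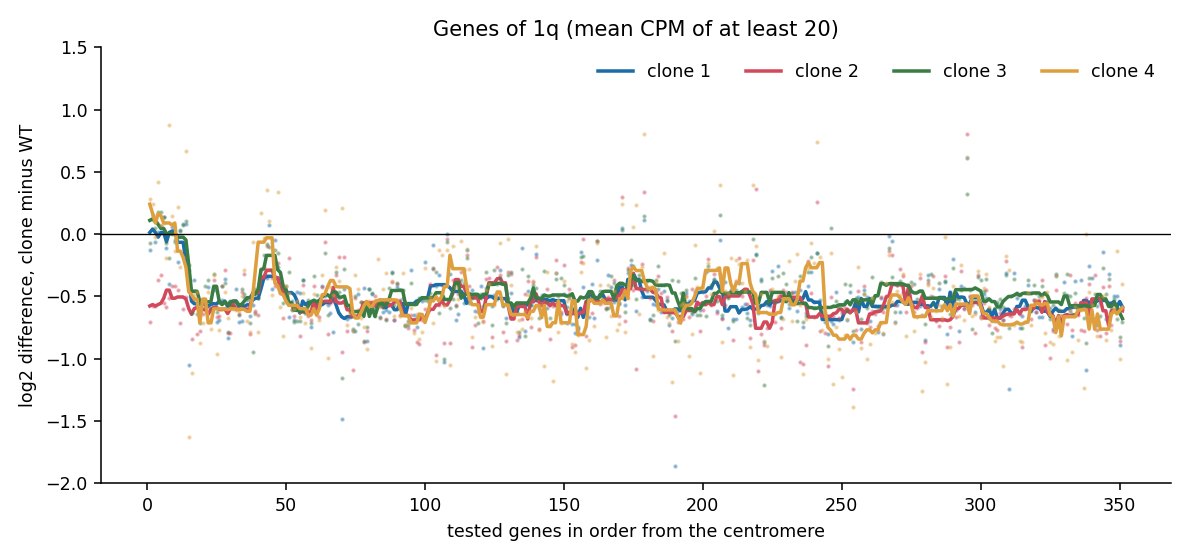
Log2 difference from the WT mean (vertical axis) for the 351 genes of 1q with a mean of at least 20 CPM, ordered from the centromere (horizontal axis); points are means of the 2 libraries of a clone and lines are running medians over 9 genes. All clones run near -0.5 along the arm, except that clones 1, 3 and 4 start near 0 while clone 2 starts low.

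Outside 1q the arms moved little, with a few exceptions. Over 41 arms with at least 30 tested genes, 19q in clone 4 was the only one apart from 1q past 0.2 in both libraries of a clone. It stood at 0.52 and 0.38 there, and genes above 5 CPM were at 133% of WT. In clone 4 against the other clones 232 of 600 genes of 19q were called higher (38.7%; 91 without clone 4 replicate 1) and 1 lower, against 5.77% called higher outside 19q and 1q. Smaller shifts were shared by all 4 clones, with no overlap between the 8 loss and 2 WT libraries, and were not tested. Arm 20p stood at 0.12 to 0.19 in the loss libraries (131 genes, 111.3% of WT), 20q at -0.14 to -0.06 (272 genes, 92.64%) and 13q at -0.20 to -0.08 (274 genes, 90.89%). Arm 15q, at 0.03 to 0.06, was the only other arm besides 1q where the groups did not overlap. The remaining 35 arms lay between -0.09 and 0.08 in every clone.

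Clone 1 had lower expression of a block of genes at the centromeric end of 13q. Between 19 and 26 Mb, a border set after the values had been seen, the median over 23 genes above 5 CPM was -0.99 and -0.92 in the 2 libraries of clone 1, or 51.7% of WT. It was -0.02, 0.11 and 0.02 in clones 2, 3 and 4. All 23 genes lay below both WT libraries in clone 1, and 22 were called lower in clone 1 against the other clones, a description since the block was chosen from these libraries. The block ran from MPHOSPH8 (chr13:19633681-19673459), a reader of methylated histone H3, to NUP58 (chr13:25301524-25349800), a nucleoporin. MPHOSPH8 stood at -0.82 in clone 1 and between 0.08 and 0.14 in the others, and NUP58 at -0.95 and between -0.24 and 0.00. Within the block, PARP4, a member of the poly(ADP-ribose) polymerase family, was at -1.04, ZMYM2, a zinc-finger corepressor, at -1.08 and LATS2, a kinase of the Hippo pathway, at -0.58. GJB6, a gap junction protein, had 0 counts in both libraries of clone 1 and 3 to 26 counts in the other clones, against 52 and 54 in WT. Beyond 26 Mb the 166 genes of 13q were at -0.15, -0.14, -0.14 and -0.18 in clones 1 to 4. The libraries of clone 1 with hRas were at -0.67 in the same block, against hRas WT, and clones 2 to 4 with hRas were at 0.20 to 0.26.

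**Figure D2:**
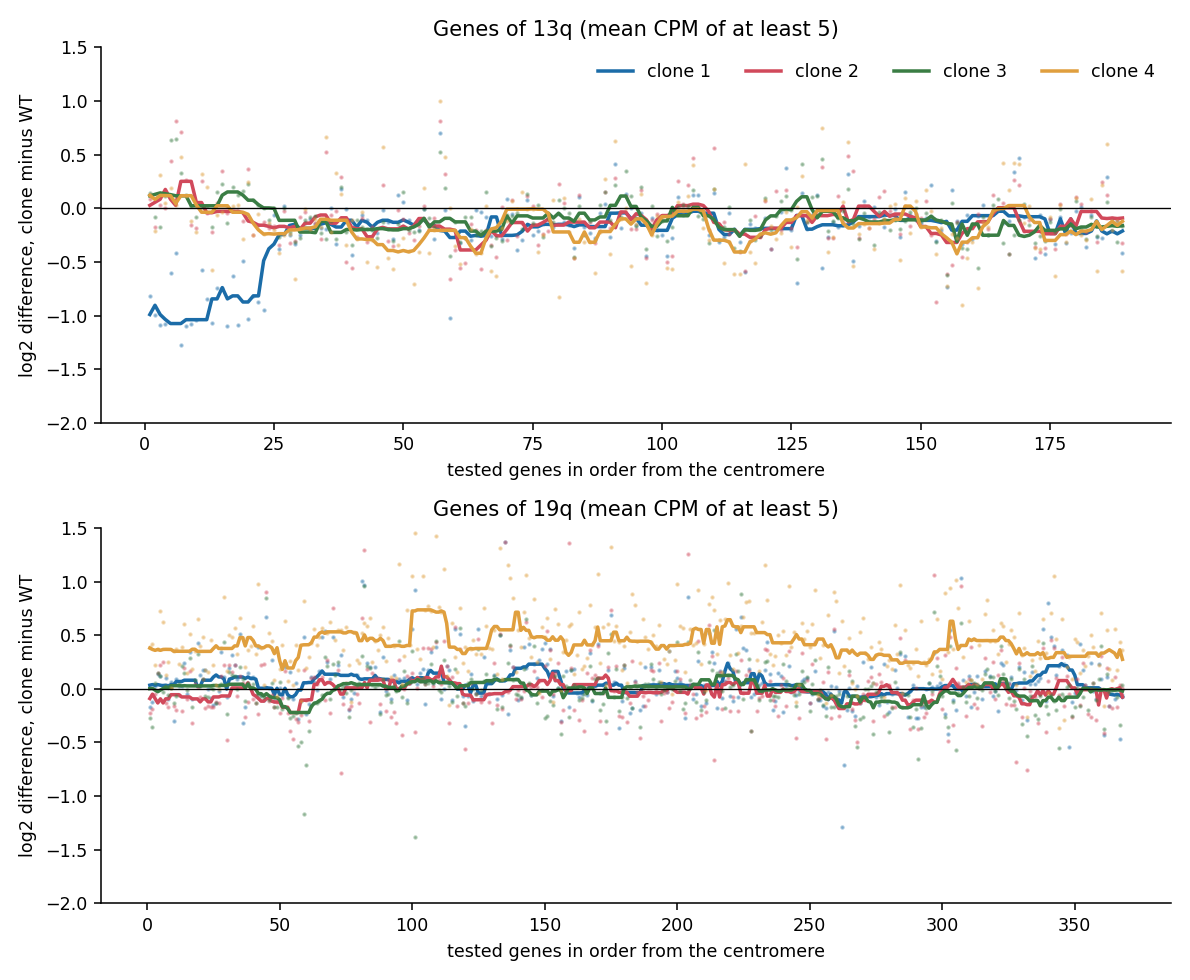
Log2 difference from the WT mean (vertical axes) for genes with a mean of at least 5 CPM on 13q (upper panel, running median over 9 genes) and 19q (lower panel, running median over 15 genes), ordered from the centromere; points are means of the 2 libraries of a clone. Clone 1 starts near -1 on 13q before joining the others, and clone 4 lies above the others along 19q.

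Outside 1q 47 genes rose (0.314% of genes tested there), 37 of them by less than 1 on the log2 scale. These calls rested on both WT libraries: 0 genes were called higher without WT replicate 1 and 2 without WT replicate 2, while DESeq2 on all 10 libraries called 201 higher. ITGB6, the integrin subunit that pairs with ITGAV to bind and activate latent TGF-beta, had 90.6 and 95.3 CPM in WT and 154 to 235 CPM in the loss libraries (log2 fold change 0.92 ± 0.14, edgeR adjusted p = 0.004). No loss library overlapped WT, and the clones stood at 0.80, 0.94, 0.79 and 1.08. ITGA3, a laminin-binding integrin subunit, rose by 0.44 from 746 and 799 CPM, and TGFB1, which encodes TGF-beta 1, rose by 0.55 from 122 and 141 CPM. The call of TGFB1 was lost in 10 of 21 alternatives, that of ITGA3 in 3 and that of ITGB6 in 2. TGFB1 overlaps HNRNPUL1 on the opposite strand, at a mean of 528 CPM, so its counts are uncertain if strand was not used. MRC2, a collagen uptake receptor, had 13.6 and 14.4 CPM in WT and 22.4 to 57.3 CPM in the loss libraries (log2 fold change 1.45 ± 0.33, edgeR adjusted p = 0.0355), and differed among clones, with clones 2 and 4 highest. COL5A3, a fibrillar collagen chain, rose by 1.71 from 1.33 and 1.72 CPM to 2.8 to 8.34 CPM. The calls of COL5A3 and MRC2 were lost in 11 and 7 of 21 alternatives, the sum of each clone's libraries among them.

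FAM171A2 rose from 2.77 and 3.17 CPM to 6.15 to 9.12 CPM in the loss libraries (log2 fold change 1.27 ± 0.21, edgeR adjusted p = 0.00477). HCN2, a pacemaker ion channel, rose by 1.11, DLG4, a synaptic scaffold protein, by 1.09, TNNT1, a slow-muscle troponin, by 1.09, CCDC69 by 1.07, SPACA9 by 1.32 and FBXO36 by 1.51. Of 21 alternatives CCDC69 lost its call in 13, HCN2 in 11, FBXO36 in 10, TNNT1 in 9, SPACA9 in 4 and DLG4 in 3. All of these but DLG4 lost it when each clone's libraries were summed. FBXO36, DLG4 and CCDC69 each overlap a more abundant gene on the opposite strand. Chosen after their values were seen, CD44, the hyaluronan receptor, rose by 0.40 from a high level (583.5 CPM on average over the 10 libraries), SDC1, a heparan sulphate proteoglycan, by 0.39, CD59, an inhibitor of complement, by 0.63, and ECE1, the endothelin-converting enzyme, by 0.60. The 4 clones of ECE1 lay between 0.57 and 0.64.

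Among the 26 genes that fell outside 1q (0.174%), GPAT2 had by far the largest change. GPAT2 (chr2:96021946-96039451), a glycerol-3-phosphate acyltransferase known for its expression in testis, had 604 and 603 counts in WT and 2, 1, 0, 0, 0, 0, 2 and 0 counts in clones 1 to 4 in order. Taking 3 counts per loss library as the floor, it was at least 170-fold lower (adjusted p = 6.62e-08 by edgeR, and called in all 21 alternatives). GPAT2 has near-identical pseudogene copies, so the assignment of its reads is uncertain. With hRas, WT had 303 and 276 counts and the 8 loss libraries 0 to 4.

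Other genes that fell outside 1q had smaller changes. KLK5, a kallikrein protease of keratinocyte shedding, had 12.7 and 5.06 CPM in WT and 0.372 to 2.65 CPM in the loss libraries (log2 fold change -2.52 ± 0.48, edgeR adjusted p = 0.0126). TPRG1 fell by 2.32 and PRIMA1, the membrane anchor of acetylcholinesterase, by 1.86. HMGN5, a nucleosome-binding protein, had 11.44 and 10.99 CPM in WT and 3.52 to 5.44 CPM in the loss libraries (log2 fold change -1.46 ± 0.18, edgeR adjusted p = 0.00114). GNAO1, a G-protein subunit, fell by 0.91, WDR66 by 0.79, KRTCAP3 by 0.71, RNF165 by 0.69 and TMTC4 by 0.67. The calls of RNF165, PRIMA1, GNAO1, KRTCAP3 and WDR66 were lost in 13, 9, 7, 7 and 6 of 21 alternatives and all 5 when each clone's libraries were summed, and those of TPRG1, TMTC4, KLK5 and HMGN5 in 2, 2, 1 and 1. Low genes chosen after their values were seen were GJA1, a connexin, with 21 to 30 counts in WT and at most 2 in a loss library, and CCND2, a G1 cyclin, with 4.438 and 3.255 CPM in WT and at most 0.5683 CPM.

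Of the lower calls outside 1q, 3 were processed pseudogenes. H3F3AP4 on 2q fell by 0.66 beside its 1q parent H3F3A (-0.63), and AHCTF1P1 on 2q by 0.59 beside its 1q parent AHCTF1 (-0.68). The third, AC005912.1 on 12p, fell by 0.65. Reads of such near-identical copies can be split between copy and parent, so these 3 calls are uncertain. H3F3B, which encodes the same histone variant from 17q, was at 0.00.

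The question of p53 arises because MDM4 lies on 1q. Over all loss libraries, 0 of 24 p53 target genes were called by edgeR. At an unadjusted p under 0.05, 7 were higher and 0 lower, where 6.05% of all genes were higher. The median over the 24 was 0.32, against 0.01 over all genes. In 11 members the mean of every clone was above WT, as it was in 21.1% of all genes, and in 0 it was below WT in every clone. CDKN1A, the inhibitor of cyclin-dependent kinases that p53 induces, had 198 and 157 CPM in WT and 237, 179, 350, 403, 329, 291, 566 and 518 CPM in clones 1 to 4 in order. Clone 1 overlapped WT and the other clones did not (log2 fold change 1.02 ± 0.35, edgeR adjusted p = 0.222). It was called without clone 1 (adjusted p = 0.0254 by edgeR) and with no filter on low counts (0.0472), and over 21 alternatives its adjusted p ran from 0.0254 to 0.784. MDM2, which targets p53 for degradation, overlapped WT (126 to 216 CPM against 176.3 and 144.8 CPM).

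The clones differed in these p53 targets when compared with each other. In clone 1, 7 of 24 were called lower than in the other clones (1 without clone 1 replicate 2), against 1.72% of all genes, and 0 higher. In clone 4, 9 were called higher (5 without clone 4 replicate 1), against 7.16% of all genes, and 0 lower. Against WT, 3 of the 7 were below both libraries in clone 1 and 4 overlapped, and 8 of the 9 were above both in clone 4 and 1 overlapped. Of these 9, BAX and BBC3, both promoters of apoptosis, lie on 19q. CDKN1A was 0.94 lower in clone 1 and 0.91 higher in clone 4 (SE 0.11 and 0.10). GDF15, a stress-induced cytokine, had 10.8 and 6.14 CPM in clone 1, 13.9 and 11.7 in clone 2, 18.6 and 16.2 in clone 3 and 40.9 and 26.3 in clone 4, against 11.4 and 8.46 CPM in WT. TP53INP1, a p53 cofactor in apoptosis and autophagy, stood at 8.7 and 9.45 CPM in WT, 10.7 and 9.23 in clone 1, 14.3 to 19 in clones 2 and 3 and 32.3 and 34 in clone 4. ZMAT3, an RNA-binding p53 target, had 61.7 and 45.9 CPM in clone 1, 74.9 and 64.2 in WT and 112 and 122 in clone 4. Clones 2 and 3 held 0 called members in either direction.

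**Figure D3:**
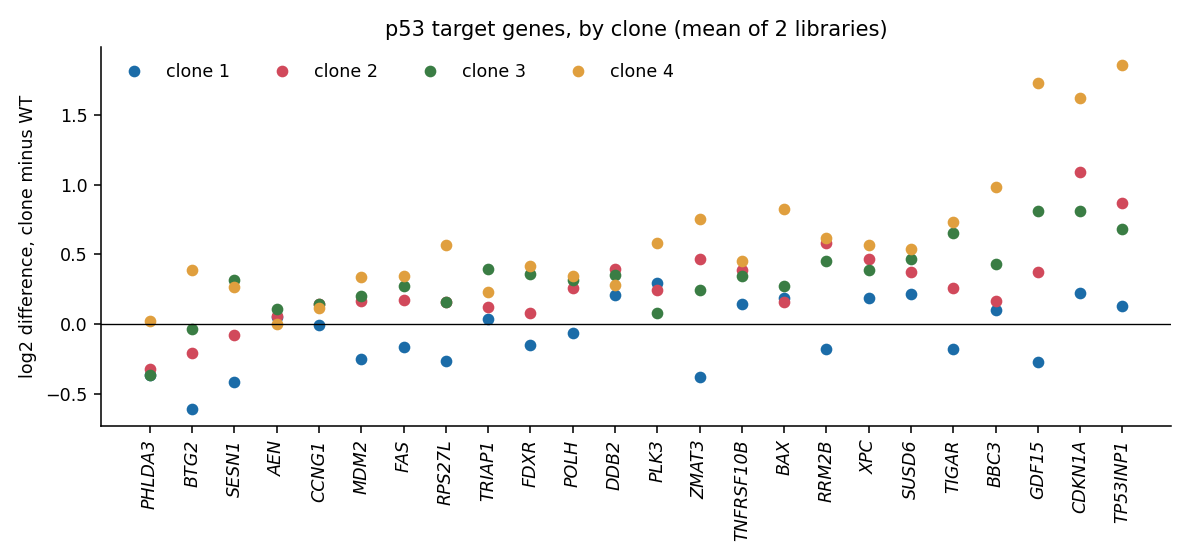
Log2 difference from the WT mean (vertical axis) of each of 24 p53 target genes, ordered by the fold change over all loss libraries (horizontal axis); each point is the mean of 2 libraries of a clone. CDKN1A and TP53INP1, at the right, run from near 0 in clone 1 to above 1.5 in clone 4.

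Few other list members changed over all 4 clones. Of 16 genes of gamma-secretase and NOTCH, 2 were lower, PSEN2 and APH1A. Of the 20 tested genes of the epidermal differentiation complex, all on 1q, S100A9 was the 1 called, and their median of -0.18 lay above that of the arm. By clone their median difference from WT was -0.34, -0.38 and -0.34 in clones 1 to 3 and 0.15 in clone 4. FDPS on 1q, a farnesyl diphosphate synthase, was the 1 lower gene of 21 in cholesterol synthesis, ATF6 of 25 in the unfolded protein and ATF4 responses and MCL1 of 15 in the BCL2 family. KLK5 was the 1 lower gene among 21 of keratinocyte differentiation outside 1q. SPARC, a matrix protein, was the 1 lower gene among 17 mesenchymal genes, at 0.956 and 1.72 CPM in WT and at most 0.187 CPM in a loss library. ITGA3 among 20 basal genes, TGFB1 among 23 TGF-beta targets and COL5A3 among 21 collagens were the 1 higher gene each. FDPS lost its call in 12 of 21 alternatives. The higher calls stand beside a background of 0.300% of all genes and the lower calls beside 1.74%, but on 1q the share called lower was 34.6%, which is the one to read PSEN2, APH1A, S100A9, FDPS, ATF6 and MCL1 against.

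The lists of replication and mitosis (30 tested), interferon-stimulated genes (34), inflammatory cytokines (21), cytosolic heat shock (19), luminal genes (14), amino acid transport (15) and EGF ligands with MAPK feedback (27) held 0 calls by edgeR. At an unadjusted p under 0.05, the last list held 7 higher and 0 lower, and in 11 of 27 members the mean of every clone was above WT, beside the shares of 6.05% and 21.1% of all genes given above. HBEGF, an EGF receptor ligand, had 18.8 and 23.2 CPM in WT and 24.1 to 39 CPM in the loss libraries (adjusted p = 0.0906 by edgeR). DUSP6, a phosphatase of ERK, had 65 and 45.8 CPM in WT and 67.3 to 92.6 CPM in the loss libraries (adjusted p = 0.0813 by edgeR). Neither overlapped WT. Among the proliferation genes TOP2A stood at 443 and 499 CPM in WT and at 325 to 441 CPM in the loss libraries, and MKI67 at 340 and 406 CPM against 252 to 432 CPM.

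**Figure D4:**
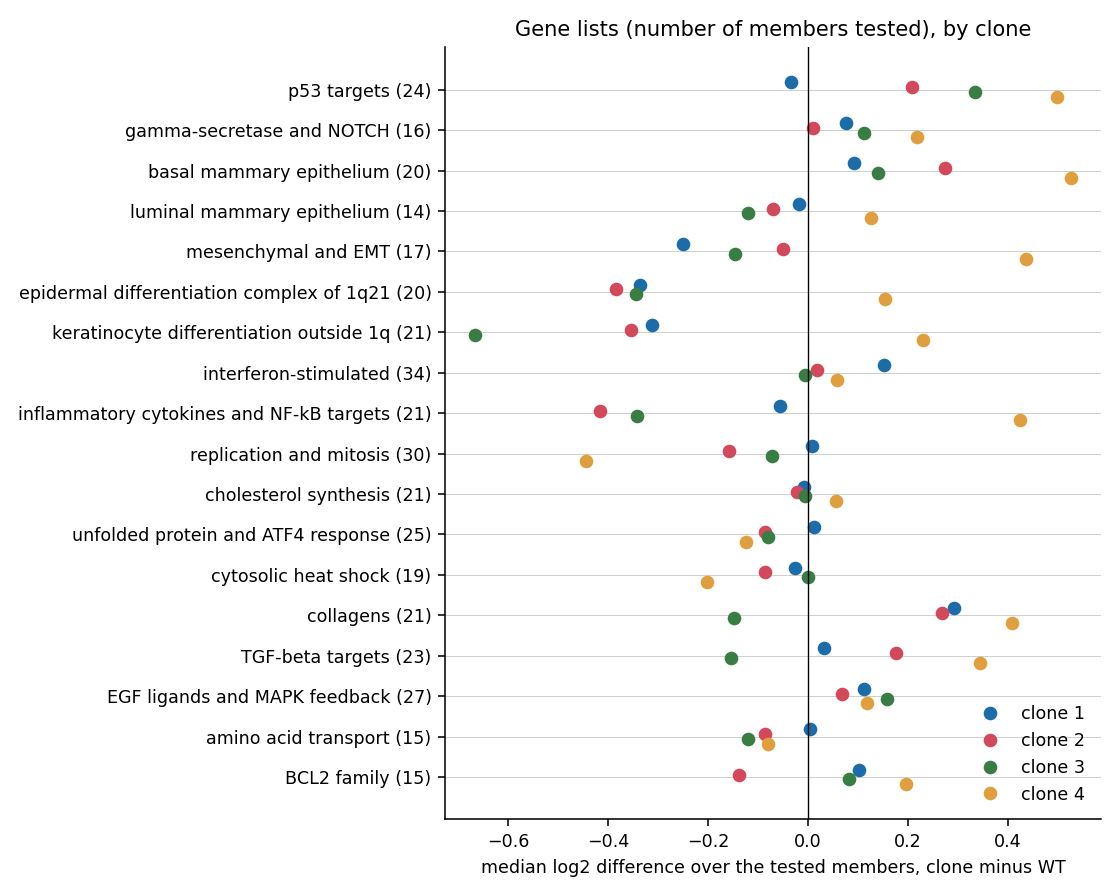
Median log2 difference from the WT mean (horizontal axis) over the tested members of each of 18 gene lists (vertical axis, number tested in brackets), 1 point per clone. Clone 4 stands apart from the others in the mesenchymal, keratinocyte, inflammatory and replication lists.

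The 4 clones were also compared with each other. Tested over the 8 loss libraries alone, 1313 of 15424 genes (8.51%) differed among the 4 clones (822 without clone 1 replicate 2). On 1q this was 70 of 688 genes (10.2%), and elsewhere 8.44%. Each clone was then set against the mean of the other clones. Clone 4 had 1614 genes called (10.5%), 1105 higher and 509 lower, or 7.16% and 3.30% of genes. Clone 1 had 447 (2.90%), 181 higher (1.17%) and 266 lower (1.72%). Clone 2 had 218 (1.41%), 113 higher (0.733%) and 105 lower (0.681%), and clone 3 had 150 (0.973%), 52 higher (0.337%) and 98 lower (0.635%). The spread in these tests is that between the 2 libraries of a clone, and leaving out a library of the clone itself lowered the counts. Clone 4 had 779 without its replicate 1, and 1041 without clone 1 replicate 2. Clone 1 had 138 and 109 without its replicates 1 and 2, clone 2 had 108 and 100, and clone 3 had 49 and 94.

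Clone 4 differed from clones 1 to 3 in proliferation genes. Of 30 genes of replication and mitosis 21 were called lower (12 without clone 4 replicate 1) and 0 higher, against 3.30% of all genes called lower. All 21 were below both WT libraries in clone 4. Subunits of the MCM helicase that unwinds DNA at replication origins fell together: MCM2, MCM3, MCM4, MCM5, MCM6 and MCM7 were 0.46 to 0.59 lower. MCM6 had 219 and 189 CPM in WT, 163 to 202 CPM in clones 1 to 3 and 119 and 127 CPM in clone 4 (log2 difference from the other clones -0.57 ± 0.08, edgeR adjusted p = 9.52e-04). MKI67, a marker of cycling cells, was at 299 and 252 CPM in clone 4 and at 352 to 432 CPM in the other clones. In bulk RNA, fewer cells of a kind and less RNA per cell cannot be told apart.

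Matrix, mesenchymal and TGF-beta genes were higher in clone 4. The calls were 6 of 16 mesenchymal genes (3 without clone 4 replicate 2), 8 of 21 collagens and 8 of 23 TGF-beta targets (5 without clone 4 replicate 2), against 7.16% of all genes called higher, and 0, 2 and 1 members were lower. Of the higher calls, 5 of 6, 5 of 8 and 8 of 8 were above both WT libraries and the rest overlapped WT. None of these higher calls lies on 19q. FN1, fibronectin, had 1053 and 2224 CPM in WT, 468 to 2093 CPM in clones 1 to 3 and 5185 and 8761 CPM in clone 4 (log2 difference 2.72 ± 0.29, edgeR adjusted p = 1.09e-04). FN1 was higher in replicate 2 than in replicate 1 of WT and of each clone, and clone 4 lay above every other library in both. LOX, a collagen crosslinking enzyme, had 54.8 and 74 CPM in clone 4 and 14.6 to 27.8 CPM in the other clones. COL6A2, a chain of type VI collagen, was high in clones 1 and 4 (14.8 and 18.8, 19 and 23.1 CPM) and low in clones 2 and 3 (1.9 to 4.7 CPM), with 6.93 and 8.86 CPM in WT. TNC, tenascin C, was 1.24 lower in clone 4 and 1.44 higher in clone 1. Of the fibroblast markers, DCN was higher in clone 4 (9.52 and 16.8 CPM against 0.323 to 2.15 CPM) while COL1A1 was at 8.57 and 8.07 CPM there and 10.8 and 16.1 CPM in WT. The part of other cells in these results was not tested.

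Basal genes and some differentiation genes of keratinised epithelium were higher in clone 4 than in clones 1 to 3, but against WT the lists differed. Of 20 basal genes 9 were higher and 1, KRT14, lower, against 7.16% of all genes called higher in clone 4 and 3.30% lower. All 9 were above both WT libraries in both libraries of clone 4. KRT17 had 4414 and 3126 CPM in clone 4 and 1136 to 2307 CPM in the other clones, and the laminin chains LAMA3 and LAMB3, the latter on 1q, were 0.76 and 0.75 higher. In the keratinocyte list outside 1q, 7 of 21 were higher (1 without clone 4 replicate 1, 4 by DESeq2), to be read against the same 7.16%, and KLK7 and KLK10 among them lie on 19q. In clone 4, 6 of these 7 overlapped WT and 1, PI3, was below it, and the list's median difference from WT was 0.23 in clone 4 and -0.31, -0.35 and -0.67 in clones 1 to 3. KLK10 had 33.1 and 12.2 CPM in clone 4 and 32.8 and 9.09 CPM in WT. In the epidermal differentiation complex 6 of 19 were higher (1 without clone 4 replicate 1), 5 of them above WT and 1 overlapping it. IVL, involucrin of the cornified envelope, had 23.3 and 16.6 CPM in clone 4, 2.95 to 6.14 CPM in clones 1 to 3 and 11.4 and 6.87 CPM in WT (log2 difference 2.09 ± 0.21, edgeR adjusted p = 7.78e-05). TGM1, the transglutaminase that crosslinks that envelope, stood at 66.5 and 25.5 CPM in clone 4, 7.52 to 12.8 CPM in the others and 33.7 and 18.4 CPM in WT. For IVL clone 4 was above WT and clones 1 to 3 below it, while for TGM1 clone 4 overlapped WT and clones 1 to 3 were below it.

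Of the inflammatory genes 7 of 21 were higher in clone 4 (3 without clone 4 replicate 2, 4 without clone 2 replicate 1, 4 by DESeq2) and 0 lower, again against 7.16% and 3.30% of all genes. In clone 4, 4 of the 7 were above WT and 3 overlapped it. SAA1, an acute-phase protein, had 35.6 and 20.1 CPM in clone 4, 4.09 to 9.89 CPM in the others and 11.5 and 10.3 CPM in WT. Luminal genes split: of 13 tested among the clones 5 were called higher in clone 4 and 3 lower, against the same shares. In clone 4, 3 of the 5 were above both WT libraries and 2 overlapped WT. Of the 3 lower calls 2 were below both WT libraries and 1, KRT18, was above them. MUC1 on 1q, a membrane mucin, was 1.53 higher in clone 4 than in the other clones, at 56.7 and 23.2 CPM against 9 to 20.7 CPM there, but overlapped WT (34.5 and 28.4 CPM). EPCAM, an epithelial adhesion molecule, was 0.88 lower, at 75.2 and 60.8 CPM against 102 to 167 CPM in the other clones and 113 and 98.1 CPM in WT. By the naming rule, the largest single changes of clone 4 were ZNF93, MYH14, CRYAB and BDH1, higher, and EEF1A2, CPVL, EREG and SHISAL1, lower. ZNF93 was at 2.65 and 2.83 CPM in clone 4, 2.22 and 2.13 CPM in WT and at most 1.15 CPM in clones 1 to 3, and MYH14 overlapped WT in clone 4. EREG, epiregulin, an EGF receptor ligand, had 0.474 and 1.21 CPM in clone 4, 12.5 and 14 CPM in clone 3 and 6.86 to 8.41 CPM elsewhere. CRYAB, a small heat shock protein, had 7.62 and 5.87 CPM in clone 4 and at most 1.26 CPM in any other library. SHISAL1 was at 0.71 and 0.734 CPM in clone 4, near WT (0.239 and 0.678 CPM), and at 2.01 to 4.71 CPM in clones 1 to 3. BDH1, a ketone body enzyme, was at 6.58 and 9.38 CPM in clone 4, near WT (6.25 and 4.02 CPM), and at most 0.893 CPM in clones 1 to 3.

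In clone 1 the largest differences from the other clones were in single genes. ROS1 (chr6:117288300-117425855), a receptor tyrosine kinase, had 34.7 and 52.2 CPM in WT, 1.67 and 1.71 in clone 1, 89.1 and 94.4 in clone 2, 23.6 and 29.2 in clone 3 and 34.48 and 36.81 in clone 4. It was lower in clone 1 by 4.71 (SE 0.16; adjusted p = 6.05e-09 by edgeR) and higher in clone 2 by 2.97 (SE 0.10; adjusted p = 4.14e-09 by edgeR). EEF1A2 (chr20:63488012-63499322), a translation elongation factor, went from 95.2 and 72.3 CPM in clone 1 through 9.66 and 4.17 in clone 2 and 2.69 and 1.94 in clone 3 to 0.0474 and 0.262 in clone 4, against 21.3 and 14.3 in WT. No library of 1 clone overlapped those of another for either gene. SLFN11, a helicase-like protein that blocks stressed replication, had 6.71 and 8.21 CPM in clone 1, 1.26 and 1.13 in WT and at most 0.237 in the other clones. Of 34 interferon-stimulated genes 3 were called higher in clone 1 and 1 lower, against 1.17% and 1.72% of all genes. The higher ones were PSMB9, an immunoproteasome subunit, by 2.10, OAS3 by 0.65 and IFITM3 by 0.58, all above both WT libraries. The lower one was TRIM22, by 2.01, at 6.4 and 4.98 CPM against 14.5 and 10.8 CPM in WT. Of 30 genes of replication and mitosis 3 were called higher in clone 1, against the same 1.17%: MKI67, MCM2 and MCM7, by 0.32 to 0.42. The other clones in this comparison include clone 4, where 21 of the 30 were called lower. Against WT the list's median difference was 0.009 in clone 1. MCM2 overlapped WT (170 and 158 CPM against 161 and 149 CPM), and the other 2 were above both WT libraries. NELL2, NUDT11 and SULT1A1 were the other large differences by which clone 1 was lower. NELL2 was near 0 in clone 2 as well. NUDT11 had 0 counts in clone 1, but it was at 0.419 to 1.6 CPM in the other clones against 7.07 and 6.47 CPM in WT, and its call in clone 1 was lost without clone 1 replicate 2 (adjusted p = 0.0664 by edgeR). It was also called higher in clone 2 (adjusted p = 0.0259 by edgeR), a call lost in 5 of 11 alternatives.

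Clones 2 and 3 had fewer genes of their own, and a basal keratin split the clones into pairs. KRT14 (chr17:41582279-41586921), the partner of KRT5 in basal keratin filaments, stood at 74.96 and 65.83 CPM in WT, 105 and 55.8 in clone 1, 108 and 126 in clone 2, 3.74 and 6.63 in clone 3 and 6.2 and 7.13 in clone 4. It was called in every clone against the others, higher in clones 1 and 2 and lower in clones 3 and 4. KRT5 was at 3111 to 5916 CPM in all libraries. In clone 2, SLC1A1, a glutamate transporter, had 7.98 and 5.01 CPM and at most 1.52 CPM elsewhere, while FLNC, a muscle filamin, SOX18, an endothelial transcription factor, and MYH14 had 0 counts. FLNC was at 5.91 and 9.18 CPM in WT and at 0.22 to 3.92 CPM in the other clones. In clone 3, ADCY1, an adenylate cyclase, and CRISPLD1 were raised, CD40, a TNF receptor family member, had 0 counts in both libraries against 2.39 to 2.87 CPM in WT and clones 1 and 2 and 0.568 and 0.315 CPM in clone 4, and PDE9A was at most 0.0372 CPM. COL16A1 was 2.65 lower in clone 3, at 1.81 and 3.13 CPM against 11.5 to 19.7 CPM in WT and the other clones.

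A search over counts, made after these values were seen, listed genes at or near 0 in both libraries of a clone. A protein-coding gene entered if both libraries of at least 1 clone had 3 counts or fewer while every remaining clone had at least 1 CPM in both libraries. A gene with 3 counts or fewer in every clone entered if both WT libraries had at least 1 CPM. Of 12937 tested genes 19 met this, and 11 of them were above 1 CPM in both WT libraries. Clone 1 had 3 counts or fewer for 15 of the 19, clone 2 for 13, clone 3 for 8 and clone 4 for 5. Among the 11 above 1 CPM in WT these were 7, 7, 4 and 4 genes. The other 8 were under 1 CPM in at least 1 WT library. Among them CRISPLD1 had 8 and 7 counts in WT and 113 and 183 in clone 3, and SLAIN1 had 4 and 2 in WT and 48 and 27 in clone 4. ZNF302, by contrast, had 28 and 44 counts in WT, 23 to 48 in clones 3 and 4 and at most 2 in clones 1 and 2. GPAT2 was the 1 gene at 3 counts or fewer in all 4 clones. B3GALNT1, a glycosyltransferase, had 0 counts in clones 1 to 3, 46 and 39 in WT and 30 and 57 in clone 4. NELL2, a secreted neuronal protein, had 0, 0, 1 and 1 counts in clones 1 and 2, 226 to 400 in clones 3 and 4 and 101 and 100 in WT. CNTN1, a neural adhesion molecule, had 0 counts in the same clones, and ADCY1 at most 2 in clones 1, 2 and 4. Genes with ZNF symbols, which encode zinc-finger proteins, were 8 of the 19, against 3.23% of the 12937 genes: ZNF302, ZNF485, ZNF502, ZNF558, ZNF569, ZNF570, ZNF630 and ZNF737. ZNF558 had 1 count in each library of clone 3 and 107 to 124 in all other libraries.

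**Figure D5:**
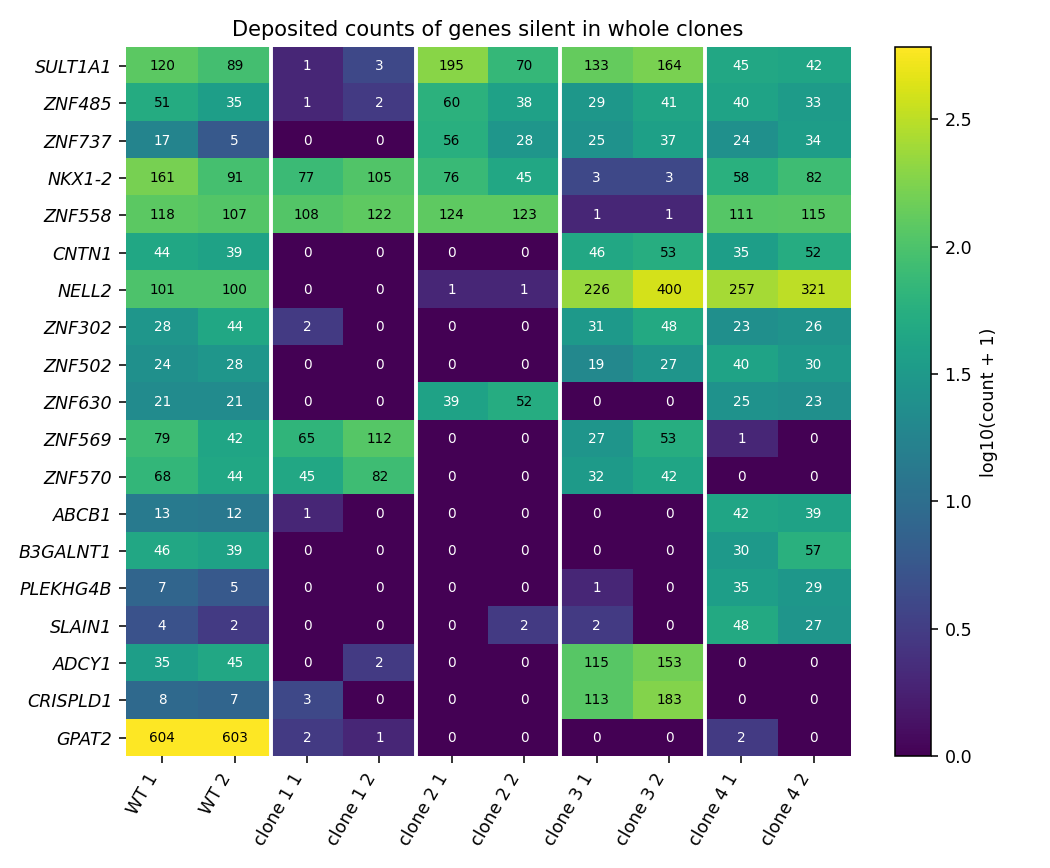
Deposited counts, printed in each cell and coloured as log10(count + 1), of the 19 genes (rows) in the 10 libraries (columns, white lines between clones). GPAT2 has 3 counts or fewer in all 4 clones and the other genes in both libraries of 1 to 3 clones; 8 of the 19 are under 1 CPM in at least 1 WT library too.

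ZNF569 and ZNF570 are neighbours on 19q that start in opposite directions, and both had at most 1 count in clones 2 and 4. ZNF569 (chr19:37411155-37469275) had 79 and 42 counts in WT, 65 and 112 in clone 1, 27 and 53 in clone 3 and 0, 0, 1 and 0 in clones 2 and 4, where it was at least 16.5-fold lower than in WT by the 3-count floor per library. ZNF570 (chr19:37467585-37488652) had 68 and 44 counts in WT, 45 and 82 in clone 1, 32 and 42 in clone 3 and 0 in all 4 libraries of clones 2 and 4, at least 15.5-fold lower. With hRas, clones 2 and 4 had 0 to 4 counts of ZNF569 and 0 to 6 of ZNF570, and the other hRas libraries 65 to 112 and 30 to 48. The gene models overlap, so reads in the overlap cannot be assigned where strand was not counted. The RefSeq start sites (GRCh38.p14) used here lie 328 bases apart. The promoter windows of 300 bases run a little past each start, and the 173 bases they share lie between the starts. These 173 bases are shown because both genes are near 0 in the same clones. They run over chr19:37467522-37467694 on the plus strand, with CG in capitals.
ZNF569 and ZNF570 shared window: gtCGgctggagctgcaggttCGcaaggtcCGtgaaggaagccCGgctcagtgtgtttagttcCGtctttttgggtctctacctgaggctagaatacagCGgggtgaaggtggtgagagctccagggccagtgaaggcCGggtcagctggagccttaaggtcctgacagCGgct
The shared stretch holds 8 CG dinucleotides, which read the same on both strands. The full windows of 300 bases hold 17 for ZNF569 and 14 for ZNF570, where the median over 35116 RefSeq promoter windows is 14. At least 1 CG was found in 96.0% of those windows, and 46.0% held as many as ZNF569 or more. No methylation was measured here.

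Whether the change with 1q loss depended on hRas was tested as an interaction over 20 MCF10A libraries. By edgeR 0 of 16492 genes (0.0%) passed, 366 had an unadjusted p under 0.05 and DESeq2 called 1, BOLA2B, a gene with near-identical copies on 16p. Over 748 genes of 1q the median change was -0.49 without and -0.37 with hRas, and 21 had an unadjusted p under 0.05 for the difference, 18 of them with a higher log2 change under hRas. Over all 16492 genes, 250 of the 366 also had a higher log2 change under hRas. That fit has no term for the clone, although the libraries with and without hRas come from the same 4 clones. With the clone as a term, an alternative chosen after seeing the data, 1 gene passed (0.00606%), ROS1, and 1278 had an unadjusted p under 0.05. The interaction of ROS1 was 2.17 ± 0.26 on the log2 scale (adjusted p = 0.0018 by edgeR), against 2.46 ± 1.87 without the clone term. In deposited counts, WT had 1016 and 1154 of ROS1 without and 622 and 593 with hRas, and clone 1 had 32 and 37, then 39 and 58. Clone 2 had 2277 and 2017 without and 9884 and 9628 with hRas. Clone 3 had 430 and 785, then 1604 and 1439, and clone 4 had 728 and 702, then 1965 and 2486.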

How the data were processed

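The deposited tables hold raw counts per gene, 1 table per library, which the authors made from poly-A RNA. Per the submitters' processing notes, HISAT2 2.0.5, featureCounts 1.5.0-p3 and GRCh38 were used; options and strand setting are not given in the sources used here. Of 58735 genes, 58724 had the start and end of GENCODE 29; 0 rows named no gene. The raw reads were not used.

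Libraries were grouped by genotype, clone and hRas status in the labels. Genes passing filterByExpr (minimum count 10, minimum total 15) of edgeR 4.0.16 were scaled by TMM and tested with glmQLFit and glmQLFTest, with Benjamini-Hochberg adjustment over all genes tested. SE is the log2 fold change over the square root of F. CPM are edgeR's, and log2 CPM used a prior count of 2. Clone values are means of 2 libraries minus the WT mean, and called clone differences come from the fit of the 8 loss libraries. Intervals from counts would cover counting error only and are not given. Arms were set from gene midpoints. The fit was tested on simulated counts. R was 4.3.3, DESeq2 1.42.0, Python 3.11.15, scipy 1.17.1 and matplotlib 3.10.9.

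The gene groups and lists were chosen with earlier results of these data known. Named genes were MDM4, UCK2, CDKN1A, MDM2, MCL1, ATF6, NCSTN, APH1A and PSEN2, then called protein-coding genes with a mean of at least 1 CPM: the 10 largest changes each way outside 1q and the 6 largest falls on 1q with 1 direction in all 4 clones, and the 4 largest each way per clone whose libraries lay beyond all others. The 5 genes of 1q above 20 CPM closest to 0 were added, and called members of each list, or else its 3 most abundant. Some genes that met this rule are not reported here. Other named list members were chosen after their values were seen. Alternatives were DESeq2, RLE size factors, TMM over genes outside 1q, other filters, summed clones, the replicate number as a block, and leaving out each library or clone. A fit of the interaction with the clone as a term was added after seeing the data.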

Additional observations from a re-analysis of the deposited data

Results flagged for a closer look

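Among 68 values checked in the 8 loss libraries for a library far from the others, 1 stood out, where chance alone would flag about 1 group in 20. TPRG1 had 1.26 CPM in replicate 1 of clone 3, while the other 7 libraries lay between 0.189 and 0.646 CPM and WT at 2.94 and 2.62 CPM. It stayed below both WT libraries there.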

How the results depend on the processing

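The 1q arm shift kept its sign under the alternatives run for it, while the genes of 1q called lower numbered 14 to 298 against 246. The shift was -0.514 with RLE size factors, -0.523 over genes with a mean of at least 1 CPM and -0.472 as a mean over genes. Taken within replicate numbers the shift equals the main value by construction, since the libraries are balanced over the numbers. It lay between -0.523 and -0.501 with a library or clone left out, where fewer libraries leave a smallest possible permutation p above 0.05. For 1q loss against WT, DESeq2 called 549 genes against 319, of which 316 were shared, and split them as 201 higher and 348 lower against 47 and 272. Leaving out a library or clone gave 16 to 452 genes. Among the 4 clones the count ranged from 822 to 1334 with a library left out. For clones 1, 2, 3 and 4 against the others it ranged from 109 to 561, 100 to 275, 49 to 221 and 779 to 1669. The interaction with hRas had 1 call with the clone as a term. DESeq2 called 688 genes for clone 1, 283 for clone 3 and 1 for the interaction with hRas, against 447, 150 and 0. With the other normalisations, filters and summed clones total counts stayed within 1.5 times those given, but with no filter 93 genes were called higher than WT against 47, and with summed clones 294 were called, which kept 20 of the 36 named calls. Why these counts moved was not tested, except that fewer libraries entered where some were left out.

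Replicate numbers were not taken to pair the samples, since over 10 pairs of clones and WT the differences between replicates 1 and 2 correlated at -0.024 to 0.165 and only 4 pairs were over 0.1. Some genes of the lists still moved with the number in WT and in every clone: KRT16 and KLK10 were higher in replicate 1, and FN1 and VIM in replicate 2 (VIM 65.2 and 124 CPM in WT, 129 and 338 CPM in clone 4). With the replicate number as a block, 338 genes were called for 1q loss against WT, 2193 among the clones, and 920, 394, 385 and 2210 for clones 1 to 4. With it 2 of the 27 EGF and MAPK genes and 1 of the 16 gamma-secretase and NOTCH genes were called higher than WT, against 0 and 0. In clone 4 against the other clones it called 12 of 21 keratinocyte genes higher against 7, 13 of 23 TGF-beta targets against 8, 9 of 16 mesenchymal genes against 6 and 9 of 19 genes of the epidermal differentiation complex against 6, and in clone 1 it called 11 of 24 p53 targets lower against 7. Depth limits genes under about 1 CPM, where a library holds few counts, and the pair of WT libraries limits every comparison with WT.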

Other observations

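Some genes used as markers of other tissues differed between clones. WT1, a transcription factor of kidney and mesothelium, had 7.169 and 7.415 CPM in the WT libraries, 6.816 to 9.942 CPM in clones 1, 2 and 4 and 0.2748 and 0.1861 CPM in clone 3 (log2 difference from the other clones -5.12; edgeR adjusted p = 3.42e-06). LHX9, a homeobox factor of the gonad and brain, was at 0 in both libraries of clone 2 and at 0.7382 to 2.363 CPM in the other clones. MITF, the regulator of pigment cells, was at 9.682 and 8.905 CPM in clone 1 and 12.66 to 22.73 CPM in the others, while the pigment enzyme TYR was at 0 in all 10 libraries.

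Of the genes at or near 0 in whole clones, NELL2 had 0 and 5 counts in clone 1 with hRas and 34 and 32 in clone 2 with hRas, where it had 1 and 1 without hRas. ZNF558 had 6 and 0 counts in clone 3 with hRas and 74 to 118 in the other hRas libraries. ROS1 had 39 and 58 counts in clone 1 with hRas and 32 and 37 without.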
